A study of Mus musculus with 15 samples.

Results

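The 9 transcription factor genes of the cranial neural crest mesenchyme were followed through development of the mouse secondary palate. They were *Twist1*, *Prrx1*, *Prrx2*, *Tfap2a*, *Tfap2b*, *Alx1*, *Alx4*, *Dlx1* and *Dlx2*, chosen by name, and all 9 were found among the 54232 genes of the deposited count table. Wild-type mouse palatal shelves had been dissected at 5 stages, at birth (P0) and on 4 successive embryonic days, E13.5 through E16.5. Each stage had 3 bulk RNA-seq libraries, and each library pooled the palates of 3 embryos, so every error given is a spread between pools. No strain, sex or litter is given in the labels used here, and no group carried a mutation or a treatment. All 9 genes passed the filter on low counts, with 25 to 30471 counts per library.

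Cranial neural crest cells leave the dorsal neural tube, fill the facial prominences and give rise to the mesenchyme of the palatal shelves, including its bone-forming cells. Transcription factors of several families are used to mark this mesenchyme and are needed for its growth and patterning. *Twist1* encodes a basic helix-loop-helix (bHLH) factor that binds E-box sequences as a dimer with E proteins. *Prrx1*, *Prrx2*, *Alx1*, *Alx4*, *Dlx1* and *Dlx2* encode homeodomain factors, and *Tfap2a* and *Tfap2b* encode AP-2 factors, which are also made in the surface ectoderm. *Dlx1* and *Dlx2* are also known for their part in the progenitors of forebrain GABA neurons, so these genes are not unique to mesenchyme.

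The genes lie on 5 chromosomes of the mouse genome (GRCm38), and all are annotated as protein coding. *Twist1* (ENSMUSG00000035799.6) is at chr12:33957671-33959829 on the plus strand. *Prrx1* (ENSMUSG00000026586.16) is at chr1:163245119-163313710 on the minus strand, and its paralogue *Prrx2* (ENSMUSG00000039476.13) is at chr2:30834972-30881251 on the plus strand. *Tfap2a* (ENSMUSG00000021359.16) is at chr13:40715302-40738376 on the minus strand, and *Tfap2b* (ENSMUSG00000025927.13) is at chr1:19208914-19238576 on the plus strand. *Alx1* (ENSMUSG00000036602.14) is at chr10:102998707-103030215 on the minus strand, and *Alx4* (ENSMUSG00000040310.12) is at chr2:93642384-93681339 on the plus strand. *Dlx1* (ENSMUSG00000041911.3) at chr2:71528113-71533981 on the plus strand and *Dlx2* (ENSMUSG00000023391.8) at chr2:71543408-71546754 on the minus strand are neighbours that face each other. Genes on the opposite strand overlap *Dlx1*, *Alx4*, *Tfap2a* and *Prrx1*. Counting was by strand. Over all libraries the counts of *Dlx1as* came to 17.2% of those of *Dlx1*, the counts of the protein-coding gene *Ext2* to 176% of those of *Alx4*, and those of any gene over *Tfap2a* or *Prrx1* to at most 3.13%.

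The sequence before the transcription start is shown for 1 member of each family that had a promoter entry, so that the families can be set side by side. RefSeq promoters (GRCm38.p6) were found for 7 of the 9 genes. The windows are the 250 bases before the RefSeq start, printed 5′ to 3′ on the gene's strand. That of *Prrx1* is shown only to the first base of the annotated exon, which leaves 190 bases. That of *Tfap2b* lies inside the gene as annotated by GENCODE, which begins earlier, at 19208914. Capitals mark matches, on either strand, to 4 motifs: the E-box CANNTG, the homeodomain core TAATTA, the AP-2 motif GCCNNNGGC and the TATA box TATAAA.
Twist1, chr12:33957421-33957670, plus strand: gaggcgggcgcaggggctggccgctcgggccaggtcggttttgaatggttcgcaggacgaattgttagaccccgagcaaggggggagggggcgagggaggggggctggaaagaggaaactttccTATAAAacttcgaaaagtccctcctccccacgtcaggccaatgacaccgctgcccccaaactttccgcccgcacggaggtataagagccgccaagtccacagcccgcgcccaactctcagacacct
Prrx1, chr1:163313711-163313900, minus strand: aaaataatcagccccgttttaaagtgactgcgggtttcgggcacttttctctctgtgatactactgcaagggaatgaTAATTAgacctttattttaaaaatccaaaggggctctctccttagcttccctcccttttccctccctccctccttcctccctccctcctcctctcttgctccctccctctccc
Tfap2b, chr1:19211804-19212053, plus strand: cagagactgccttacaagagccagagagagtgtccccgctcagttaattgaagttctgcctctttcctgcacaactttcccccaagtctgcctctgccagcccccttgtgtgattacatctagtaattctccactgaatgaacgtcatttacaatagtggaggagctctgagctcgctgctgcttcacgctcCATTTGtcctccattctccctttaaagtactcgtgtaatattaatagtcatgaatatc
Dlx2, chr2:71546755-71547004, minus strand: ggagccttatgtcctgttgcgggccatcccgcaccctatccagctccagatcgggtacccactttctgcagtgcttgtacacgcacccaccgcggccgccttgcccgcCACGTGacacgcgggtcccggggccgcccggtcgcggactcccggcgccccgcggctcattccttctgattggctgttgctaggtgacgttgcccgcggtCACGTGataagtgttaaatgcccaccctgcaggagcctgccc

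The *Twist1* window held 1 TATAAA, whose first base was 126 bases before the start, and no match to the other 3 motifs. In the *Prrx1* window there was 1 TAATTA, 173 bases before the start. The *Dlx2* window held 2 copies of CACGTG, a form of the E-box, at 142 and 42 bases before the start, and the *Tfap2b* window 1 E-box at 58 bases. Among 32851 mouse promoters of 250 bases, 66.2% held at least 1 CANNTG, 4.84% TAATTA, 13.7% GCCNNNGGC and 12.4% TATAAA. These matches describe letters only. GC content was 62.4% for *Twist1*, 66.4% for *Dlx2*, 47.6% for *Prrx1* and 46.4% for *Tfap2b* over the 250 bases, against a median of 52.4% over all promoters.

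The libraries held 21.5 to 69.0 M (1e6) counts, with a median of 61.0 M. Levels of a gene are given as CPM, the counts per 1e6 counts of the library, with TMM-adjusted totals (TMM is the trimmed mean of M values). Palate mesenchyme genes such as *Shox2* and *Tbx22* were detected in every stage, at 62.7 and 19.4 CPM on average at E13.5. Some libraries stood apart in markers of other tissues. The summed level of 8 forebrain GABA neuron markers was 294 CPM in E13.5 replicate 2, against 39.1 and 93.5 CPM in the other 2 libraries of that stage. The summed level of 12 *Hox* genes of the hindbrain, neck and trunk was 656 CPM in E14.5 replicate 1, against 251 and 97.8 CPM in the other 2, and 7 choroid plexus markers summed to 1420 CPM there, 780 CPM in replicate 3 and 32.1 CPM in replicate 2. No stage was without such markers, except that *Hoxd4* never exceeded 3 counts. Where a call or a count of calls below changed without E13.5 replicate 2 and E14.5 replicate 1, both values are given. These are called below the 2 libraries high in neural markers, but other libraries held such markers too. The sum of 8 neuron markers was 4010 CPM in E14.5 replicate 2 and 3150 CPM in E16.5 replicate 2, against 3100 CPM in E13.5 replicate 2. Leaving out the 2 libraries therefore does not clear the rest of these markers. Where a level differs between stages in bulk tissue, fewer cells of a type and less RNA per cell cannot be told apart.

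Over the whole span, transcripts of 7 of the 9 genes fell between E13.5 and P0. They were *Twist1*, *Prrx1*, *Prrx2*, *Tfap2b*, *Alx1*, *Alx4* and *Dlx1*, with log2 fold changes from -0.98 to -3.24, each past an adjusted p of 0.05 (edgeR quasi-likelihood F test, Benjamini-Hochberg over 22151 genes). In the same comparison 56.6% of all tested genes were called in either direction and 26.8% were called lower. The fitted changes of all 9 were negative, as were those of 48.9% of tested genes, and the median was -1.78 for the 9 and 0.03 for all. For the same 7 genes every P0 library lay below every E13.5 library, as it did for 28.9% of tested genes. Without the 2 libraries high in neural markers, described above, 6 of the 9 were called, all but *Tfap2b* of the 7, against 46.2% of tested genes. Calls of *Twist1*, *Prrx1*, *Alx1*, *Alx4* and *Dlx1* held under all 14 alternatives of that comparison, while those of *Prrx2* held in 8 and those of *Tfap2b* in 9.

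**Figure D1:**
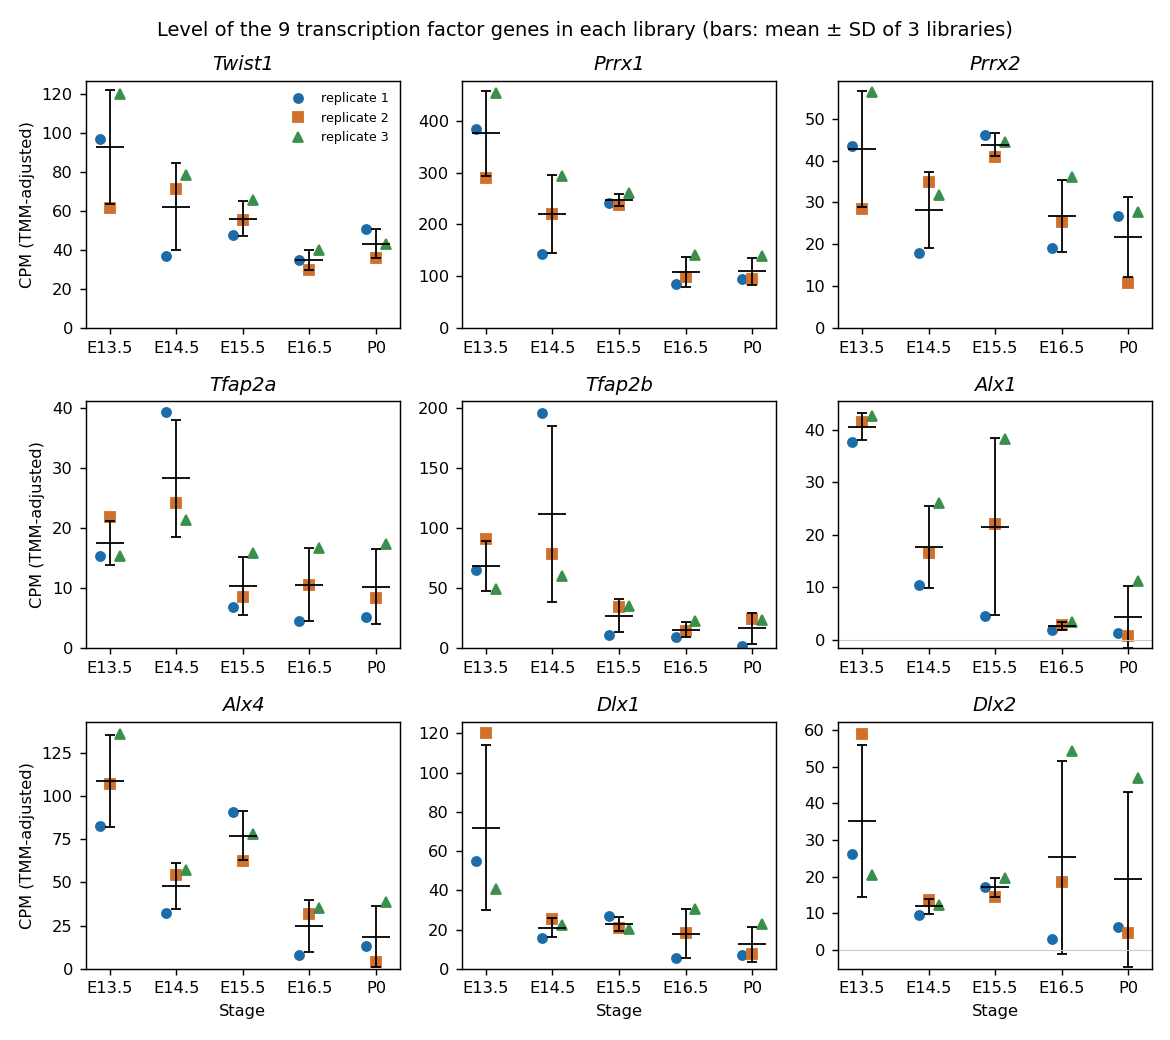
Level of each of the 9 genes (CPM, TMM-adjusted, linear axis with its own range, not cut at the lowest library) against stage. Points are the 3 libraries of a stage, marked by replicate, and bars are the mean ± SD. *Prrx1* falls from 289 to 453 CPM at E13.5 to 93.9 to 139 CPM at P0, while *Dlx2* spans 4.76 to 46.8 CPM at P0 and overlaps E13.5.

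*Twist1*, the bHLH gene, stood at 96.8, 61.8 and 120 CPM (E13.5; replicates 1, 2 and 3 in that order, here and below), 36.8, 71.4 and 78.5 CPM (E14.5), 47.7, 55.2 and 65.5 CPM (E15.5), 35.1, 29.7 and 39.8 CPM (E16.5) and 50.6, 36.0 and 43.2 CPM (P0). The E13.5 libraries were above all those of E16.5 and P0, and the E14.5 libraries reached from the level of E16.5 into that of E13.5. The mean level fell from 92.8 ± 29.2 CPM (SD, n = 3) at E13.5 to 43.3 ± 7.33 CPM at P0, a log2 fold change of -1.10 (SE 0.29, adjusted p = 0.0058, edgeR). Its lowest mean, 34.9 ± 5.06 CPM, was at E16.5, and all 3 libraries there were below those of E15.5 (log2 fold change -0.69, adjusted p = 0.186). With each library of the 2 stages left out in turn, the fall to P0 stayed between -0.88 and -1.33 on the log2 scale.

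*Prrx1*, the homeodomain gene with the most counts of the 9, read 385, 289 and 453 CPM (E13.5), 143, 221 and 294 CPM (E14.5), 242, 238 and 261 CPM (E15.5), 84.9, 99.2 and 141 CPM (E16.5) and 93.9, 94.7 and 139 CPM (P0). The levels formed 3 tiers: E13.5 highest, E14.5 and E15.5 in the middle, and E16.5 and P0 lowest, with E13.5 and E14.5 overlapping by 1 library. The fall over the span was the one with the smallest adjusted p of the 9 (log2 fold change -1.78, SE 0.28, adjusted p = 0.000188, edgeR). Its step from E15.5 to E16.5 (-1.19, SE 0.27) took the mean from 247 ± 12.2 to 108 ± 29.3 CPM, with no overlap of libraries, and missed the threshold at an adjusted p of 0.0503. That step passed in 3 of 14 alternatives, among them DESeq2.

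*Prrx2*, its paralogue, measured 43.4, 28.5 and 56.4 CPM (E13.5), 17.9, 34.9 and 31.7 CPM (E14.5), 46.2, 40.8 and 44.5 CPM (E15.5), 19.1, 25.3 and 36.1 CPM (E16.5) and 26.8, 10.7 and 27.6 CPM (P0). Its 3 libraries at E15.5 were as high as those of E13.5 and above all libraries of E14.5, E16.5 and P0. The stage mean was 42.8 ± 14 CPM at E13.5, 43.8 ± 2.79 CPM at E15.5 and 21.7 ± 9.54 CPM at P0. The fall to P0 was -0.98 on the log2 scale (SE 0.37, adjusted p = 0.0394, edgeR). It depended on single libraries, with an adjusted p of 0.143 without P0 replicate 2, 0.138 without E13.5 replicate 3 and 0.0779 without E13.5 replicate 1, and it was 0.098 when only the 6 libraries of the comparison were fitted. Over all 5 stages the F test for *Prrx2* gave an adjusted p of 0.0973.

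The AP-2 genes had their highest stage mean at E14.5, where their libraries overlapped those of E13.5. *Tfap2a* was at 15.4, 21.8 and 15.4 CPM (E13.5), 39.3, 24.2 and 21.3 CPM (E14.5), 6.83, 8.53 and 15.9 CPM (E15.5), 4.60, 10.5 and 16.7 CPM (E16.5) and 5.21, 8.32 and 17.3 CPM (P0). *Tfap2b* was at 65.6, 90.8 and 49.2 CPM (E13.5), 196, 78.9 and 60.4 CPM (E14.5), 11.1, 34.6 and 35.6 CPM (E15.5), 9.84, 14.3 and 22.6 CPM (E16.5) and 1.69, 24.1 and 23.9 CPM (P0). Both genes were highest of all 15 libraries in E14.5 replicate 1, and for both the E15.5 libraries lay below every E14.5 library.

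The step from E14.5 to E15.5 was -1.44 (SE 0.51, adjusted p = 0.0537) for *Tfap2a* and -2.04 (SE 0.77, adjusted p = 0.067) for *Tfap2b* on the log2 scale, both short of the threshold in edgeR's quasi-likelihood test. Without E14.5 replicate 1 these were at adjusted p = 0.199 and 0.277. That library was also the highest in the summed *Hox* genes, whose total at E14.5 was 97.8 to 656 CPM against 0.911 to 13.8 CPM at E15.5. Of 11 tested *Hox* genes 5 were called lower, as were 13.4% of all tested genes, or 2 without the 2 libraries high in neural markers. In E14.5 replicate 1 the 8 neuron markers summed to 5590 CPM, and the part of such tissue in the AP-2 levels was not tested. *Tfap2b* fell between E13.5 and P0 (log2 fold change -2.05, SE 0.77, adjusted p = 0.0376, edgeR), from 68.5 ± 21 to 16.6 ± 12.9 CPM. This call was lost without E13.5 replicate 1 (adjusted p = 0.0648), without E13.5 replicate 2 (0.098) and without P0 replicate 1 (0.0545), the library in which only 61 counts of *Tfap2b* were found and without which the change was -1.48. *Tfap2a* had a change of -0.77 (SE 0.51, adjusted p = 0.206, edgeR), with 1 overlapping P0 library.

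The aristaless-like genes had the most negative fitted changes from E13.5 to P0 of the 9, with that of *Dlx1* close behind. *Alx1* stood at 37.8, 41.5 and 42.7 CPM (E13.5), 10.4, 16.6 and 26.0 CPM (E14.5), 4.52, 22.0 and 38.2 CPM (E15.5), 1.81, 2.88 and 3.28 CPM (E16.5) and 1.19, 0.762 and 11.2 CPM (P0). *Alx4* stood at 82.7, 107 and 136 CPM (E13.5), 32.5, 54.0 and 57.3 CPM (E14.5), 90.8, 62.5 and 77.8 CPM (E15.5), 7.77, 31.8 and 35.0 CPM (E16.5) and 13, 4.21 and 38.5 CPM (P0). For both genes the 3 E13.5 libraries were above all E14.5, E16.5 and P0 libraries, and P0 replicate 3 was the highest of its stage by a wide margin.

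Stage means of *Alx1* went from 40.7 ± 2.54 CPM at E13.5 to 2.66 ± 0.757 CPM at E16.5 and 4.38 ± 5.90 CPM at P0, which were 6.53% and 10.8% of the E13.5 mean. The fall from E13.5 to P0 was -3.24 on the log2 scale (SE 0.93, adjusted p = 0.00995, edgeR), and it was -5.35 without P0 replicate 3. On the log2 scale the largest step of *Alx1* was from E15.5 to E16.5, at -3.02 (SE 0.92). There libraries did not overlap, but the adjusted p was 0.0986 in edgeR, and E15.5 itself spread 8.45-fold from lowest to highest library. In CPM the mean went from 21.6 to 2.66 in that step. From E13.5 to E14.5 it went from 40.7 to 17.7 CPM, also without overlap (log2 fold change -1.20, adjusted p = 0.531, edgeR). *Alx4* fell from 109 ± 26.9 to 18.6 ± 17.8 CPM (log2 fold change -2.55, SE 0.68, adjusted p = 0.00645, edgeR). This was -3.65 without P0 replicate 3. Its mean at E15.5 was 77.0 ± 14.1 CPM, above all libraries of E14.5 (47.9 ± 13.5 CPM), a difference of 0.68 with an adjusted p of 0.449.

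*Dlx1* measured 55.1, 120 and 40.9 CPM (E13.5), 15.5, 25.2 and 22.4 CPM (E14.5), 26.7, 21 and 20.4 CPM (E15.5), 5.35, 18.1 and 30.3 CPM (E16.5) and 6.85, 7.62 and 22.9 CPM (P0). *Dlx2*, its neighbour on the chromosome, measured 26.2, 59.0 and 20.6 CPM (E13.5), 9.64, 13.7 and 12.4 CPM (E14.5), 17.3, 14.5 and 19.6 CPM (E15.5), 2.96, 18.6 and 54.2 CPM (E16.5) and 6.19, 4.76 and 46.8 CPM (P0). E13.5 replicate 2 was the highest of all 15 libraries for both. E16.5 replicate 3 and P0 replicate 3 were as high in *Dlx2* as the E13.5 libraries, whereas in *Dlx1* they stayed below them.

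*Dlx1* fell by 2.54 on the log2 scale between E13.5 and P0 (SE 0.62, adjusted p = 0.00412, edgeR), and its E14.5 libraries were already all below those of E13.5 (change -1.77, SE 0.60, adjusted p = 0.208). *Dlx2* had a change of -0.88 to P0 (SE 0.91, adjusted p = 0.424), with a mean of 19.3 ± 23.9 CPM there. Without P0 replicate 3 the *Dlx2* change was -2.66, with an adjusted p of 0.0238 in edgeR. All 9 genes were called lower when that library was left out, in a fit that called 54.9% of tested genes in either direction. The library highest in both genes, E13.5 replicate 2, was also the highest in the forebrain GABA neuron markers, and without it the *Dlx1* change was -1.96 (adjusted p = 0.0212, edgeR) and the *Dlx2* change -0.30 (adjusted p = 0.824). Of those 8 markers, 6 were called lower at P0, as were 26.8% of tested genes, and 1 without the 2 libraries high in neural markers. At P0 their sum was 4.69 to 42.1 CPM, and none was at 3 counts or fewer in every library. *Gad1* and *Gad2*, which encode the enzymes of GABA synthesis, averaged 19.9 and 29.1 CPM at E13.5, and the part of neural tissue in the *Dlx* levels was not tested.

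**Figure D2:**
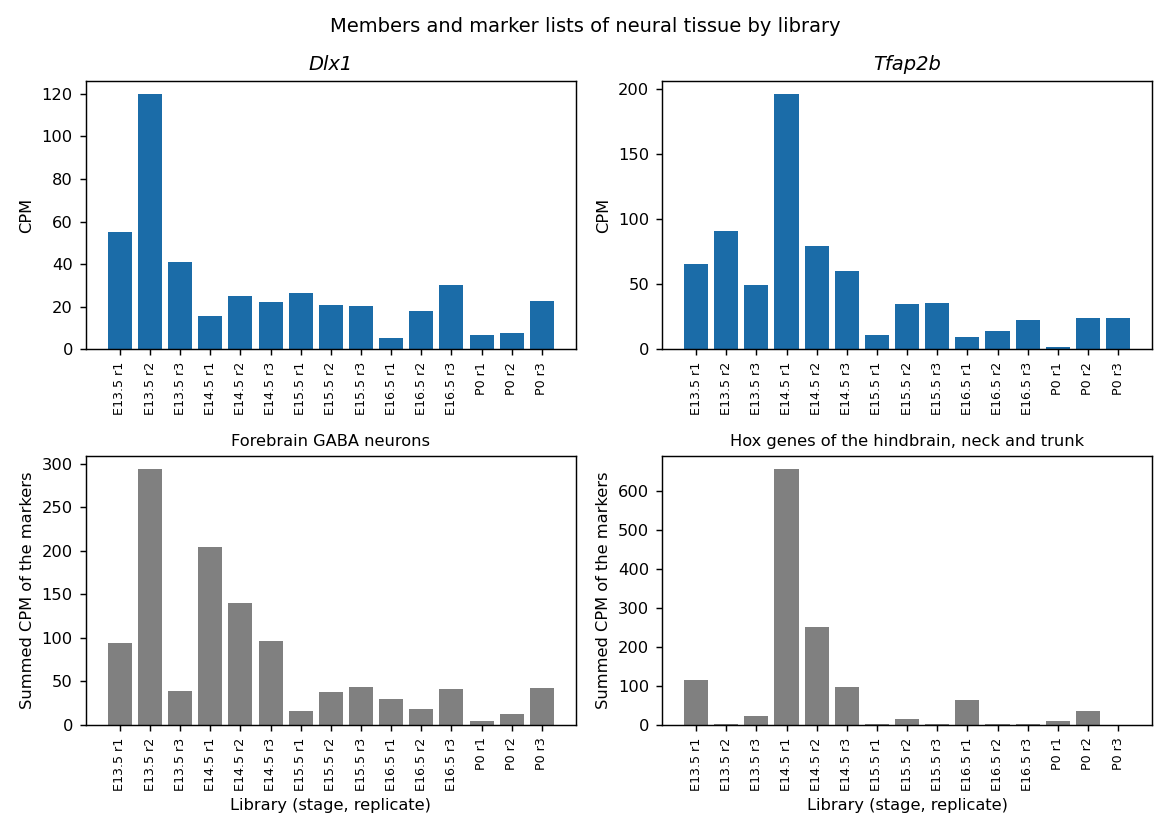
Upper panels show CPM of *Dlx1* and *Tfap2b* in each of the 15 libraries, and lower panels the summed CPM of 8 forebrain GABA neuron markers and of 12 *Hox* genes of the hindbrain, neck and trunk in the same libraries (bars start at 0). The highest *Dlx1* bar (120 CPM) and the highest GABA marker sum (294 CPM) are both E13.5 replicate 2, and the highest *Tfap2b* bar (196 CPM) and *Hox* sum (656 CPM) are both E14.5 replicate 1.

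Between neighbouring stages no member was called by edgeR. From E13.5 to E14.5, 0 of 9 passed (0.00903% of tested genes), with 2 at an unadjusted p under 0.05 (16% of tested genes) and 1 called by DESeq2 (4.51%), which was *Dlx1*. From E14.5 to E15.5, 0 of 9 passed although 26.1% of tested genes did, with 2 at an unadjusted p under 0.05 (39.7%) and both AP-2 genes called by DESeq2, as were 32.5% of tested genes. From E15.5 to E16.5, 0 of 9 passed (1.41%), with 4 at an unadjusted p under 0.05 (21.8%) and 2 called by DESeq2 (9.45%), *Prrx1* and *Alx1*. From E16.5 to P0, 0 of 9 passed (0.352%), with none at an unadjusted p under 0.05 (11.7%) and none called by DESeq2 (2.99%).

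Without overlap of libraries, 4 genes were lower at E14.5 than at E13.5 (13.7% of tested genes) and 5 were lower at E16.5 than at E15.5 (15.5%). The first were *Alx1*, *Alx4*, *Dlx1* and *Dlx2*, and the second *Twist1*, *Prrx1*, *Prrx2*, *Alx1* and *Alx4*. From E14.5 to E15.5 the AP-2 pair was lower without overlap (27.2% of tested genes were), and *Prrx2*, *Alx4* and *Dlx2* were higher (24.0%). From E16.5 to P0 all 9 overlapped, where 5.39% of tested genes were lower and 6.23% higher without overlap. The F test over all 5 stages called 6 of the 9 (edgeR, adjusted p under 0.05), against 59.1% of tested genes. These were *Twist1*, *Prrx1*, *Tfap2b*, *Alx1*, *Alx4* and *Dlx1*. Without the 2 libraries that stood apart in neural markers, 3 remained of these 6, *Twist1*, *Prrx1* and *Alx1*, and 43.6% of tested genes were called.

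**Figure D3:**
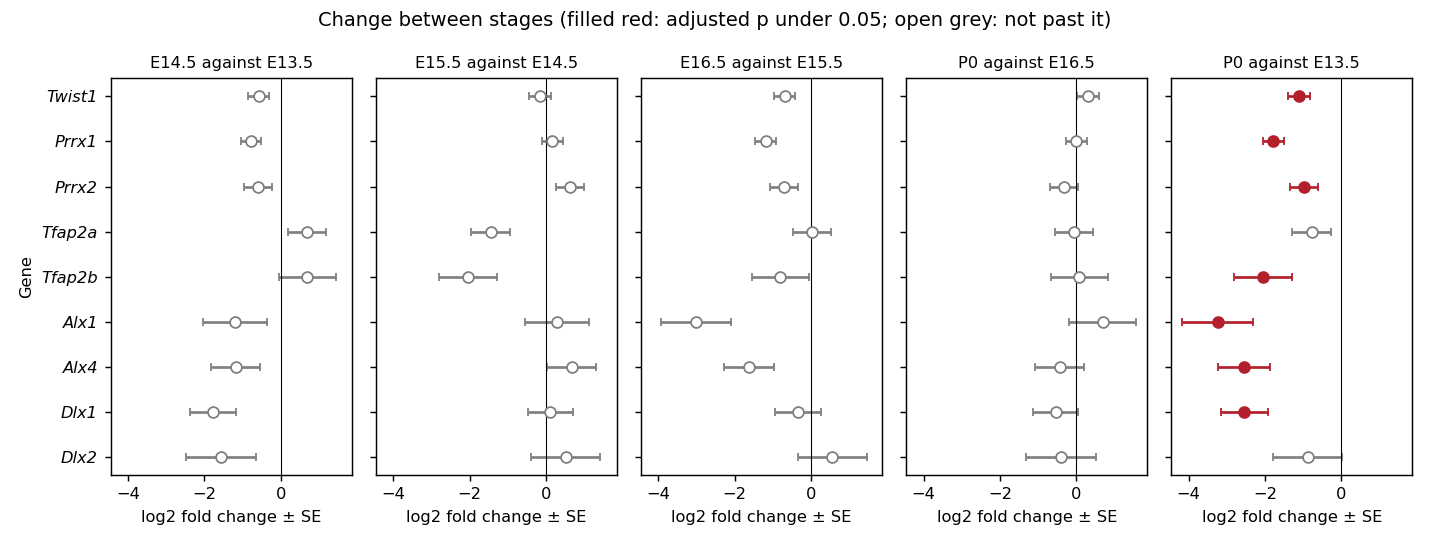
Log2 fold change ± SE (edgeR) of the 9 genes in 5 comparisons, each later stage against the earlier one. Filled red points passed an adjusted p of 0.05 and open grey points did not. Calls appear only in P0 against E13.5, where 7 genes are red and all 9 points lie left of 0.

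Levels were compared between genes as TPM, the transcripts per 1e6 transcripts, which divide by exon length. That length covers all annotated exons of a gene, 1628 bases for *Twist1* (1 annotated transcript) and 11066 bases for *Prrx1* (5 transcripts). The order of genes depends on these lengths, and which transcripts were made was not examined. In CPM *Prrx1* was above *Twist1*, at means of 375 and 92.8 CPM at E13.5. *Twist1* had the highest mean TPM of the 9 at every stage, from 213 ± 63.5 TPM (SD, n = 3) at E13.5 to 74.8 ± 15 TPM at P0. At E13.5 it was followed by *Prrx1* (127 ± 26.0 TPM), *Prrx2* (81.6 ± 24.9), *Alx4* (57.3 ± 11.7), *Dlx1* (50.2 ± 29.3), *Dlx2* (46.5 ± 27.3), *Tfap2b* (40.8 ± 12.9), *Alx1* (26.5 ± 0.617) and *Tfap2a* (13.4 ± 2.85). Neighbours in that order overlapped from *Twist1* down to *Tfap2b*, and only the last 2 steps had no overlap. At E14.5 the order was *Twist1*, *Prrx1*, *Tfap2b*, *Prrx2*, *Alx4*, *Tfap2a*, *Dlx2*, *Dlx1* and *Alx1*, and only *Prrx2* and *Alx4* did not overlap. At E15.5 *Twist1* (126 ± 21.1 TPM) stood clear of *Prrx1* and *Prrx2*, which were both at 81.4 TPM, and these stood clear of *Alx4* (39.7 ± 6.24 TPM), itself clear of *Dlx2* (21.9 ± 3.01 TPM).

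By E16.5 *Prrx2* (42.5 ± 17.9 TPM) had a higher mean than *Prrx1* (30.2 ± 11.3 TPM), with overlapping libraries, and *Alx1* was lowest at 1.43 ± 0.556 TPM, clear of *Tfap2a* at 6.86 ± 4.42 TPM. The rest of the order at that stage, *Dlx2*, *Alx4*, *Dlx1* and *Tfap2b*, overlapped from neighbour to neighbour. At P0 *Twist1* was clear of *Prrx2* (31.7 ± 16 TPM), and all further neighbours overlapped, down to *Alx1* at 2.39 ± 3.37 TPM. The summed TPM of the 9 was 657 (E13.5), 410 (E14.5), 403 (E15.5), 204 (E16.5) and 187 (P0), and *Twist1* made up 31.3% to 40.0% of it. The share of *Tfap2b* was 15.3% at E14.5 and 3.76% to 6.20% at the other stages, and that of *Dlx2* was 14.1% at E16.5 and 3.67% at E14.5. Single libraries set the high shares, which were 8.99% for *Tfap2b* without E14.5 replicate 1 and 7.71% for *Dlx2* without E16.5 replicate 3.

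**Figure D4:**
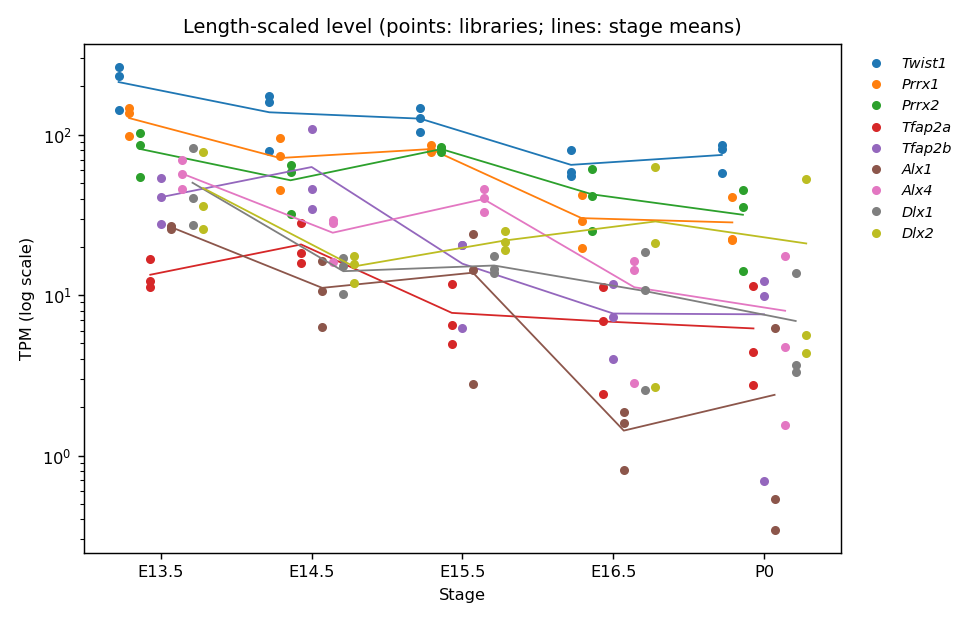
TPM (log axis) of the 9 genes against stage, with a point for each library and a line through the stage means. The *Twist1* line is the highest throughout, from 213 to 74.8 TPM, and the *Alx1* line drops from 13.8 TPM at E15.5 to 1.43 TPM at E16.5.

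The balance of paralogues was followed as the ratio of their counts per exon length within each library, which needs no scaling between libraries. Which paralogue is the higher depends on the annotated exon lengths, while the change of a ratio between stages does not. The ratio of *Prrx1* to *Prrx2* was 1.42 to 1.79 (E13.5), 1.1 to 1.64 (E14.5), 0.927 to 1.04 (E15.5), 0.692 to 0.788 (E16.5) and 0.620 to 1.57 (P0). From E13.5 to E16.5 the stage means went from 1.59 ± 0.186 to 0.724 ± 0.0551, with all E15.5 libraries below those of E14.5 and all E16.5 libraries below those of E15.5, while P0 spread from below E16.5 into the range of E13.5. The exact permutation F test over the 5 stages gave p = 0.0198 for this pair and 0.0791 after adjustment over the 4 pairs tested. Without P0 replicate 2, whose ratio was 1.57, the adjusted value was 0.00186, and without P0 replicate 1 it was 0.0209.

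*Tfap2a* to *Tfap2b* was 0.340 ± 0.0567 (E13.5), 0.371 ± 0.101 (E14.5), 0.563 ± 0.238 (E15.5), 0.837 ± 0.201 (E16.5) and 1.78 ± 1.90 (P0), where 1 library was at 3.96 and the others at 0.447 and 0.939. *Tfap2b* was thus the more abundant per length in 14 of 15 libraries. The ratio of *Dlx1* to *Dlx2* was 1.05 to 1.11 (E13.5), 0.849 to 0.971 (E14.5), 0.549 to 0.819 (E15.5), 0.296 to 0.956 (E16.5) and 0.259 to 0.847 (P0). All 3 E13.5 libraries had more *Dlx1* than *Dlx2* per length, including the library with the highest GABA markers, and all 12 later libraries had less. *Alx1* was below *Alx4* in all 15 libraries, at ratios of 0.0612 to 0.601. Neither the AP-2 pair (p = 0.077, adjusted 0.154), the *Dlx* pair (p = 0.119, adjusted 0.158) nor the *Alx* pair (p = 0.247, adjusted 0.247) passed the exact permutation test. On ranks the same test gave adjusted p = 0.0416 for the AP-2 pair, 0.0347 for the *Dlx* pair and 0.0416 for the *Prrx* pair, and without P0 replicate 2 the AP-2 pair was at 0.00483.

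**Figure D5:**
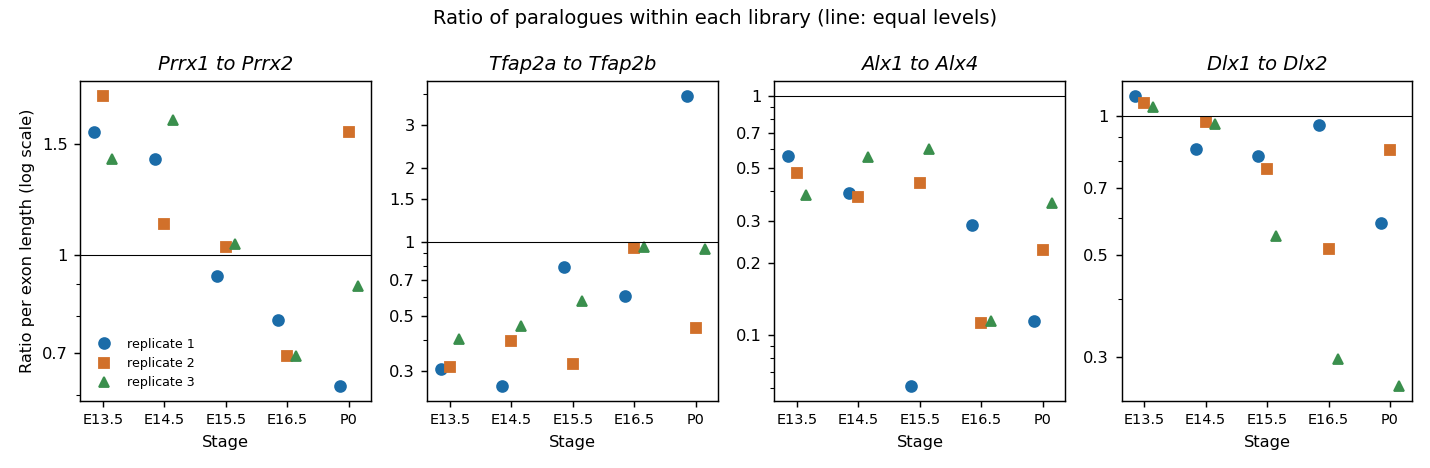
Ratio of 2 paralogues per exon length in each library (log axis, points marked by replicate, the line marks equal levels) against stage. *Prrx1* to *Prrx2* passes from 1.42 to 1.79 at E13.5 to 0.692 to 0.788 at E16.5, and *Dlx1* to *Dlx2* is above 1 at E13.5 only.

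Some pairs of members varied together across libraries, and others hardly did. Over the 15 libraries, which share stage and dissection, Pearson's r of log2 CPM was 0.89 for *Prrx1* and *Twist1*, 0.89 for *Prrx1* and *Alx1*, 0.87 for *Alx1* and *Alx4*, 0.86 for *Tfap2a* and *Tfap2b*, 0.85 for *Dlx1* and *Dlx2* and 0.77 for *Prrx1* and *Prrx2*. The lowest values were 0.09 for *Prrx2* and *Tfap2b*, 0.12 for *Prrx2* and *Tfap2a* and 0.27 for *Twist1* and *Dlx2*. After subtraction of stage means, *Dlx1* and *Dlx2* had an r of 0.96, *Alx4* and *Dlx2* 0.84, *Prrx1* and *Twist1* 0.76 and the AP-2 pair 0.74. *Twist1* and *Tfap2b* went the other way within stages (r = -0.41), as did *Prrx2* and *Tfap2b* (-0.41). At E13.5, E14.5 and E16.5 the 3 libraries had the same order in both *Dlx* genes, while at E15.5 replicate 3 was lowest in *Dlx1* and highest in *Dlx2*. These are descriptions over 15 libraries, with no test.

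Among 11856 genes of at least 10 CPM, the 3 with the profile most like each member over the 15 libraries were named by Pearson's r of log2 CPM. For *Twist1* these were *Mdfi* (0.937), *Wwp2* (0.924) and *Pdgfc* (0.923), and for *Prrx1* *Cntln* (0.983), *Dtl* (0.979) and *Nsl1* (0.977). For *Prrx2* they were *Megf6* (0.943), *Efs* (0.931) and *P4ha3* (0.927). The AP-2 genes were closest to *Thtpa* (0.927), *Pcdh8* (0.925) and *Bcl11a* (0.923) for *Tfap2a*, and to *Hook1* (0.976), *Sowahc* (0.971) and *Rfx3* (0.968) for *Tfap2b*. *Alx1* was closest to *Mplkip* (0.963), *Trim59* (0.957) and *Prim1* (0.956), and *Alx4* to *Aaas* (0.971), *Psrc1* (0.968) and *Chtf18* (0.964). *Dlx1* was closest to *Foxm1* (0.942), *Gm42047* (0.928) and *Fanca* (0.923), and *Dlx2* to the homeobox gene *Msx2* (0.868), to *Dlx6os1* (0.864) and to *Dlx1* (0.852). *Dtl*, *Prim1* and *Foxm1* are known for roles in DNA replication or cell division, but the share of such genes among the 11856 was not tested.

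Markers of dividing cells were also lower at P0 than at E13.5. The summed level of 8 cycling-cell markers averaged 1520 CPM at E13.5 and 950 CPM at E14.5. In that step 7 of the 9 members had negative fitted changes, while both AP-2 means were higher at E14.5. The sum averaged 1060 CPM at E15.5, and 3 of the 9 fitted changes from E14.5 were negative. At E16.5 it averaged 756 CPM, and 7 of the 9 fitted changes from E15.5 were negative. The *Dlx2* mean went from 17.1 to 25.3 CPM in that step. No member was called by edgeR in these steps. Over the whole span the sum went from 1440 to 1580 CPM at E13.5 to 477 to 875 CPM at P0. Of the 8 markers, 7 were called lower at P0, as were 26.8% of tested genes. Over the same span the summed level of 9 osteoblast markers went from 1290 to 1970 CPM up to 18300 to 35300 CPM, with 8 of 9 called higher. That of 8 skeletal muscle markers went from 309 to 560 up to 5170 to 28400 CPM, with 6 called higher. Of all tested genes, 56.6% were called in either direction over this span and 26.8% were called lower. Of 10 mesenchyme markers, 7 were called higher and 2 lower (3 without the 2 libraries high in neural markers), and *Pdgfra*, a growth factor receptor of crest mesenchyme, fell (log2 fold change -1.06, adjusted p = 0.00459, edgeR). The summed mesenchyme markers, among them *Col3a1*, *Col1a2*, *Col6a3*, *Lum*, *Dcn* and *Postn*, went from 5490 to 8340 CPM at E13.5 to 22000 to 34100 CPM at P0. A sum of CPM follows its most abundant genes, so it does not measure the amount of mesenchyme. The part of these changes in the members' levels was not tested.

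Other genes of the same families were taken from a list. This list and those below share some genes, such as *Twist2*, *Shox2*, *Tfap2c* and *Msx1*, so their counts are not separate. Of 11 family members outside the list that were tested, 3 were lower at P0 than at E13.5 and none higher. That was 27.3%, beside 26.8% of all tested genes called lower. Their median log2 fold change was -0.89, and 2 were lower without the 2 libraries high in neural markers. Among the 3 were *Twist2*, the bHLH paralogue of *Twist1* (32.5 ± 16.9 to 7.42 ± 1.50 CPM, log2 fold change -2.13, adjusted p = 0.00299, edgeR), and the palate homeobox gene *Shox2* (62.7 ± 9.26 to 9.81 ± 6.74 CPM, -2.68, adjusted p = 0.000482).

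Of the other *Dlx* genes, none passed the test between E13.5 and P0 in edgeR with all libraries. *Dlx5* averaged 32.9 ± 4.99 CPM at E13.5 and 32.8 ± 22.5 CPM at P0 (log2 fold change -0.01, SE 0.46), and *Dlx6* 19 ± 5.18 and 10.2 ± 5.86 CPM (-0.89, adjusted p = 0.0578, edgeR, but 0.039 in DESeq2 and 0.00421 without P0 replicate 3). *Dlx3* was at 16.7 ± 8.28 and 30.7 ± 26.6 CPM (0.87, adjusted p = 0.261) and *Dlx4* at 2.03 ± 1.42 and 4.18 ± 3.47 CPM (1.03, adjusted p = 0.311). Whether these changes differ from that of *Dlx1* was not tested. *Tfap2c* was at 14.2 ± 2.02 and 7.69 ± 4.40 CPM (-0.89, adjusted p = 0.193). *Tfap2d* had 0 to 14 counts in 13 libraries, 355 in E13.5 replicate 2 and 854 in E14.5 replicate 1, and *Tfap2e* had 2 to 177 counts. Their changes did not pass (adjusted p = 0.135 and 0.531).

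Of 16 genes of neural crest specification and migration, 7 were lower at P0 than at E13.5, as were 26.8% of tested genes, and 1 was higher. Their median log2 fold change was -1.04. *Pax3* fell from 28.1 ± 6.64 to 1.44 ± 1.00 CPM (log2 fold change -4.31, adjusted p = 0.00185, edgeR), *Sox5* from 51.2 ± 6.67 to 6.84 ± 2.95 CPM (-2.90, adjusted p = 5.71e-05) and *Sox9*, also a cartilage regulator, from 105 ± 20.6 to 18.3 ± 11.1 CPM (-2.53, adjusted p = 0.000225). The gene that was higher was *Foxd3*, named after its value was seen, with 3.93 ± 0.620 and 9.87 ± 5.18 CPM (1.33, adjusted p = 0.0082). Between E14.5 and E15.5, 26.1% of tested genes were called in either direction and 13.4% were lower. Without the 2 libraries high in neural markers, 10.6% were called in either direction. Of the 16 genes 4 fell, and 2 without those libraries. They were led by *Gbx2* (17.9 ± 11.8 to 0.220 ± 0.0260 CPM, -6.33, adjusted p = 0.00127) and *Zic1* (155 ± 100 to 11.8 ± 2.46 CPM, -3.72, adjusted p = 0.00207). Without E14.5 replicate 1 the changes were -5.75 (adjusted p = 0.00543, edgeR) for *Gbx2* and -3.06 (0.00868) for *Zic1*. Both are also genes of the developing brain, and E14.5 was the stage with the highest *Hox* and choroid plexus sums. The part of neural tissue in the levels of *Gbx2* and *Zic1* was not tested.

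Among 12 partners of *Twist1* and other bHLH or HLH genes, 5 were lower at P0, as were 26.8% of tested genes, and none higher. Their median was -0.30. The E proteins *Tcf12* (327 ± 15 to 125 ± 24.2 CPM, log2 fold change -1.39, adjusted p = 7.43e-05, edgeR) and *Tcf3* (336 ± 35.0 to 138 ± 39.7 CPM, -1.28, adjusted p = 8.94e-05) fell beside *Twist2*. From E14.5 to E15.5 the inhibitor *Id4* (-1.28, adjusted p = 0.0473) and *Tcf12* (-0.58, adjusted p = 0.0365) fell, but neither passed without E14.5 replicate 1 (0.196 and 0.087). Among 28 regulators of palate and jaw mesenchyme, 16 were lower at P0, as were 26.8% of tested genes, and none higher. Their median was -1.16. *Tbx22*, a cleft palate gene, fell from 19.4 ± 4.64 to 0.738 ± 0.909 CPM (-4.78, adjusted p = 0.000357), and *Meis2* from 208 ± 44.8 to 49.0 ± 12 CPM (-2.09, adjusted p = 5.21e-05). Between E14.5 and E15.5, 7 of the 28 fell, where 13.4% of tested genes were called lower and 26.1% in either direction. Without the 2 libraries high in neural markers 5 of the 28 fell, where 10.6% of tested genes were called in either direction. Among the 7 were *Meis2* (-2.07, adjusted p = 0.000611) and *Meis1* (-1.72, adjusted p = 0.00226).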

How the data were processed

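Bulk RNA-seq of wild-type mouse palatal shelves was read from 1 table of raw counts deposited by the authors. Per the file headers, fragments were counted with featureCounts 2.0.1 by strand on GENCODE M18, after trimming and marking of duplicates. The submitters' processing notes name cutadapt 3.4, HISAT2 2.2.1, Bowtie2, SAMtools 1.12 and mm10. Symbols and positions were taken from GENCODE M21, in which all 9 genes have identical positions.

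Genes were filtered with edgeR's filterByExpr (minimum count 10), which left 22151. After TMM scaling, all 15 libraries were fitted together by edgeR 4.0.16 under R 4.3.3, each stage having its own coefficient. Contrasts used the quasi-likelihood F test with Benjamini-Hochberg adjustment over all tested genes and a threshold of 0.05. TPM used the exon lengths of the table. Log2 CPM had a prior count of 2. Ratios of paralogues (pseudocount 0.5) were tested with a two-sided exact permutation F test over 1401400 partitions of the libraries. The members and lists were chosen with earlier results of these data known. All members and the tested family members were named, except 2 of the latter that are not reported here, plus, from each other list, the 3 largest called changes from E13.5 to P0 and the 2 largest from E14.5 to E15.5 at 5 CPM or more. The procedure was tested on simulated data.

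Depth ranged from 21.5 to 69.0 M (1e6) counts, where 3 counts were taken as the floor. Chi-square per degree of freedom between libraries of a stage was 29.5 to 225, far above counting error. Labels do not say whether pools came from separate litters, so p-values measure the spread between these pools. The alternatives were DESeq2 1.42.0, its size factors or upper-quartile scaling in edgeR, no filter, a mean of at least 1 CPM, the 6 libraries of a contrast, a replicate block, leaving out each library, and, chosen after the data were seen, leaving out 2 libraries high in neural markers.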

Additional observations from a re-analysis of the deposited data

How the results depend on the processing

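The count of members called from E13.5 to P0 was 5 to 9 over all alternatives and with each library left out. In those fits 31.7% to 61.4% of tested genes were called. DESeq2 called 1 member from E13.5 to E14.5 (4.51% of tested genes), 2 from E14.5 to E15.5 (32.5%) and 2 from E15.5 to E16.5 (9.45%). For these steps edgeR called 0 members (0.00903%, 26.1% and 1.41% of tested genes). Fitting only the 6 libraries of the comparison called 2 from E14.5 to E15.5, beside 32.3% of tested genes. With each library left out in turn, 0 to 1 members were called from E14.5 to E15.5 (*Tfap2a*, without E15.5 replicate 3, 13.3% of tested genes). From E15.5 to E16.5 the count was also 0 to 1 (*Prrx1*, without E16.5 replicate 3, 2.19% of tested genes). Over all stages 5 to 7 were called so (50.2% to 59.0% of tested genes), and 3 without the 2 libraries high in neural markers (43.6%). Upper-quartile scaling put the median change of all genes from E14.5 to E15.5 at 0.16, against 0.03 with TMM.

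Same-numbered libraries of different stages did not deviate together (r from -0.303 to 0.548, median -0.00166 over 30 pairs), so the numbers were not taken to pair samples. A replicate block called 1 member from E14.5 to E15.5 (*Tfap2a*), 1 from E15.5 to E16.5 (*Prrx1*), 7 from E13.5 to P0 and 7 over all stages. In the same order it called 26.5%, 1.91%, 56.9% and 59.4% of tested genes.

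On ranks, the adjusted exact permutation p of the paralogue ratios was 0.0416 for *Prrx1* to *Prrx2*, 0.0416 for *Tfap2a* to *Tfap2b* and 0.0347 for *Dlx1* to *Dlx2*. With each library left out it ranged from 0.00186 to 0.197 for the *Prrx* pair, from 0.00483 to 0.277 for the AP-2 pair (lowest without P0 replicate 2), from 0.0615 to 0.421 for the *Alx* pair and from 0.0772 to 0.277 for the *Dlx* pair.

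Signs turned only in steps between neighbouring stages that edgeR did not call for that gene, and the cause was not tested. With each library left out in turn, the log2 change from E14.5 to E15.5 ranged from -0.43 to 0.04 for *Twist1*, -0.07 to 0.43 for *Prrx1*, -0.42 to 0.76 for *Alx1* and -0.08 to 0.25 for *Dlx1*. From E15.5 to E16.5 it ranged from -0.47 to 0.47 for *Tfap2a*, -0.95 to 0.09 for *Dlx1* and -0.67 to 1.09 for *Dlx2*. From E16.5 to P0 it ranged from -0.21 to 0.24 for *Prrx1*, -0.54 to 0.00 for *Prrx2*, -0.65 to 0.44 for *Tfap2a*, -0.31 to 0.62 for *Tfap2b*, -1.44 to 1.20 for *Alx1*, -1.55 to 0.04 for *Alx4*, -1.31 to 0.08 for *Dlx1* and -2.22 to 0.83 for *Dlx2*. Without the 2 libraries high in neural markers, *Prrx1* was at -0.07 and *Dlx1* at -0.08 from E14.5 to E15.5. Upper-quartile scaling put *Tfap2a* at -0.01 from E15.5 to E16.5 and at 0.01 from E16.5 to P0. With the block *Tfap2a* was at -0.01 from E15.5 to E16.5 and *Tfap2b* at -0.05 from E16.5 to P0, and with no filter *Prrx1* was at -0.03 from E16.5 to P0. The lowest count of a member was 25, and the effect of depth on the calls was not tested.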
